A study of Mus musculus with 6 samples.

Results

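MHC class II antigen presentation was examined through 9 of the 25755 genes measured in mouse optic nerve. They are the classical class II chains H2-Aa, H2-Ab1 and H2-Eb1, the invariant chain Cd74, the peptide editors H2-DMa and H2-DMb1, the class II transactivator Ciita and the costimulatory ligands Cd80 and Cd86. They were taken from the table by gene symbol, and all 9 were found and tested without a filter on low values. After optic nerve crush, Cd86 was higher in every crushed mouse than in every sham mouse. Groups lay apart in this way, in either direction, for 21.6% of all genes. The fold change of Cd86 was 2.67 (log2 1.42, standard error 0.29, 3 mice per group, limma adjusted p = 0.0393). Of the 6 fits that omit 1 mouse, Cd86 passed in only 1. Sex-linked transcripts also differed between the groups, so sex and surgery cannot be told apart. The other 8 members did not pass the test, and the 7 class II chains, editors and regulators varied more among the 3 crushed mice than between the groups, with their highest value in the same crushed mouse.

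RNA was sequenced in bulk from whole optic nerves of 6 Nf1flox/flox; hGFAP-Cre mice, each a separate library. All of them carried the floxed Nf1 alleles and the Cre recombinase and were 3 months old. Mice 1 to 3 had sham surgery and mice 4 to 6 had optic nerve crush (ON-CR), in which the nerve is compressed with forceps behind the eye. The study operated at 6 weeks of age and examined nerves at 12 weeks. Cre is driven by the human GFAP promoter and removes Nf1 in neuroglial progenitors and their progeny, so the immune cells that present antigen in this nerve keep their Nf1 alleles. All values are gene counts that the authors divided by 1 factor per library, called normalized values here.

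MHC class II molecules are pairs of an alpha and a beta chain that display peptides from endosomes to CD4+ T cells. The pair is assembled on the invariant chain, which is then cut down to a fragment in the peptide groove, and H2-DM exchanges that fragment for a peptide. Transcription of these genes depends on Ciita, which binds no DNA itself and is recruited by factors that sit on the X and Y boxes of class II promoters. Cd80 and Cd86 give the T cell its second signal through Cd28. In the healthy central nervous system, class II is mostly found on cells of the meninges and vessels and is low on microglia.

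Letters of the X and Y boxes can be read in some promoters of this family, and 3 windows are shown, from the members H2-Aa and H2-Eb1 and from H2-Eb2. They were read on the coding strand, 5′ to 3′, from RefSeq promoters of GRCm38.p6, and lie at chr17:34287857-34287933 (minus strand) for H2-Aa, chr17:34305746-34305822 (plus strand) for H2-Eb1 and chr17:34325513-34325589 (plus strand) for H2-Eb2, a further class II beta chain. Capitals mark the X box core AACNGATG and the Y box core TGATTGG. The H2-Aa window held the Y core but no X core.
H2-Aa: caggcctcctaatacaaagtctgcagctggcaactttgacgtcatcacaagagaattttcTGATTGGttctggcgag
H2-Eb1: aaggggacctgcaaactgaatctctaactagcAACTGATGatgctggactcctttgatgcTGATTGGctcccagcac
H2-Eb2: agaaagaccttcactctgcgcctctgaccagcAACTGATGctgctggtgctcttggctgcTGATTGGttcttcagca

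The Y box core began 50 bases before the RefSeq start of H2-Aa and 61 before that of H2-Eb1. In H2-Eb1 and H2-Eb2 the X and Y cores were 20 bases apart, and in H2-DMb1 they were 21 bases apart. Over all 32851 promoters of 300 bases, read on both strands, the X core was found in 2.32% and the Y core in 7.82%. An X core followed by a Y core 10 to 30 bases later was found in 5 genes (0.0152% of promoters), namely H2-Eb1, H2-DMb1, H2-Eb2, H2-DMb2 and BC051142. These letters were chosen after promoters of the family had been read, and 5 of the 9 members had a promoter in the table. H2-Aa, H2-Oa and H2-Ob held the Y core without the X core. H2-DMa and Cd80 held neither core in this window. Such an absence says only that these letters are not there.

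The libraries held 17414035 to 23620997 estimated reads, and 3 reads correspond to a normalized value of 2.66 to 3.18. Of all genes, 540 (2.10%) passed an adjusted p of 0.05 in limma, 250 of them (0.971%) higher and 290 lower after ON-CR. There were 67 calls when ON-CR mouse 6 was left out, and leaving out ON-CR mouse 5 gave 854. Myelin transcripts at high level (Mbp 369255 to 1296440) fit the tissue label. Some libraries stood apart from the rest. ON-CR mouse 6 held immunoglobulin transcripts far above the others (Igkc 83710 against 48.2 to 1602), and ON-CR mouse 5 held the highest sum of 5 markers of neuronal cell bodies (5514 against 812 to 2692). The airway transcript Bpifa1 was at 4579 to 7568 in sham mouse 3 and ON-CR mice 5 and 6 and at 0 to 22.3 in the other mice. Xist was at 2.14 to 30.9 in the sham mice and 2708 to 6357 in the ON-CR mice, while the Y-linked Ddx3y was at 1291 to 1645 in the sham mice and at 976, 4.19 and 0 in ON-CR mice 4, 5 and 6. Sex-linked transcripts therefore differed with the surgery, ON-CR mouse 4 carried both, and sex and surgery cannot be told apart in any comparison below. Whether the library of ON-CR mouse 4 held RNA of several mice was not tested.

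H2-Aa encodes the alpha chain of the A molecule (chr17:34282744-34287823, minus strand, ENSMUSG00000036594). Its normalized values were 3945, 4176 and 6167 in the sham mice and 4478, 1859 and 15267 in the ON-CR mice. The highest and the lowest of the 6 mice were both crushed, with the sham values between them, so the groups overlapped. The means were 4763 ± 1222 and 7201 ± 7107 (SD, n = 3), and the log2 fold change was 0.11 with a standard error of 0.58 and a 95% interval of -1.17 to 1.39 (limma adjusted p = 0.953). The direct comparison of the 2 group means by an exact permutation test, two-sided, gave p = 0.8, where the smallest p that 3 against 3 mice allow is 0.1. In whole nerve, fewer cells of a type and less RNA per cell cannot be told apart, for this gene or any other below.

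**Figure D1:**
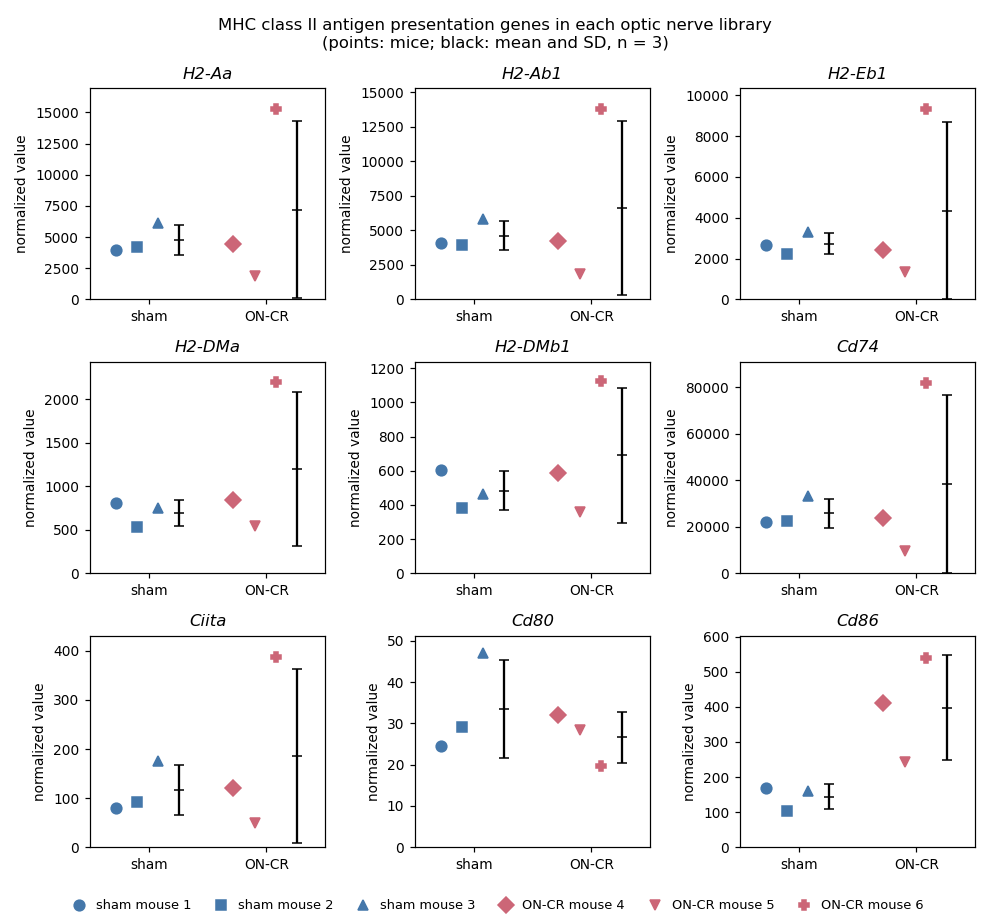
Normalized value of the 9 genes in each mouse (vertical axes, linear and starting at 0), with sham mice in blue and ON-CR mice in red and with the mean and SD of each group (n = 3) in black. In the 7 panels from H2-Aa to Ciita, ON-CR mouse 6 lies above every other mouse, and in the Cd86 panel all 3 ON-CR mice lie above all 3 sham mice.

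The beta chain of the A molecule, H2-Ab1 (chr17:34257689-34269419, plus strand), stood at 4106, 3950 and 5801 in the sham mice and 4217, 1841 and 13788 in the ON-CR mice. The order of the crushed mice was that of H2-Aa, and the ratio of H2-Aa to H2-Ab1 was between 0.961 and 1.11 in the 6 libraries. H2-Eb1, the beta chain of the E molecule (chr17:34305867-34316674, plus strand), stood at 2648, 2243 and 3280 in the sham mice and 2408, 1328 and 9322 in the ON-CR mice. Again the crushed mice held both ends of the range. The log2 fold change was 0.06 (SE 0.55, 95% interval -1.16 to 1.29, adjusted p = 0.973) for H2-Ab1 and 0.20 (SE 0.54, -1.0 to 1.41, adjusted p = 0.899) for H2-Eb1. Intervals of this width hold changes of 1 log2 unit in either direction.

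Cd74, the invariant chain, lies on chromosome 18 and was the most abundant member. Its normalized values were 21941, 22548 and 33102 in the sham mice and 23797, 9626 and 81769 in the ON-CR mice. This is the same order of mice as for H2-Aa, with ON-CR mouse 6 at 3.16 times and ON-CR mouse 5 at 0.372 times the sham mean. The log2 fold change was 0.06 (SE 0.59, 95% interval -1.24 to 1.37, adjusted p = 0.974). A microRNA gene, Mir5107, lies within Cd74 on the same strand, so its reads are not separable from those of the host. Cd74 alone made up 0.104% to 0.171% of a sham library, and 0.126%, 0.0527% and 0.432% of the libraries of ON-CR mice 4, 5 and 6. The ratio of Cd74 to H2-Aa, not adjusted for length and chosen after its values were seen, was 5.18 to 5.56 over the 6 libraries, while H2-Aa itself spanned 8.21-fold.

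The editors H2-DMa and H2-DMb1 form the H2-DM pair. H2-DMa (chr17:34119541-34139101) had normalized values of 803, 528 and 756 in the sham mice and 843, 548 and 2203 in the ON-CR mice. ON-CR mouse 6 was again the highest, but ON-CR mouse 5 stayed within the sham range, at 0.788 times the sham mean. H2-DMb1 (chr17:34153072-34160230) had values of 607, 380 and 465 in the sham mice and 588, 356 and 1127 in the ON-CR mice. Here ON-CR mouse 5 was the lowest of the 6 by a small margin, and ON-CR mouse 4 lay within the sham range. The log2 fold changes were 0.56 (SE 0.41, 95% interval -0.35 to 1.46, adjusted p = 0.562) and 0.38 (SE 0.35, -0.39 to 1.15, adjusted p = 0.657). H2-DMa relative to H2-Aa was 0.123 to 0.204 in the sham mice and 0.188, 0.295 and 0.144 after ON-CR. The editors thus followed the classical chains less closely than Cd74 did. H2-DMa shares exon bases with Brd2 on the other strand, and H2-DMb1 has a near-identical neighbour in H2-DMb2, whose ratio to H2-DMb1 was 0.0887 to 0.758. Reads of these pairs may have been split in counting, and whether strand was used is not given in the sources used here.

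Ciita, the master regulator of the group (chr16:10480059-10528418), was low. Its normalized values were 80.6, 93.0 and 175 in the sham mice and 121, 50.3 and 388 in the ON-CR mice. ON-CR mouse 6 was the highest and ON-CR mouse 5 the lowest of the 6, the order of H2-Aa and Cd74. The log2 fold change was 0.29 (SE 0.60, 95% interval -1.05 to 1.62, adjusted p = 0.870). Relative to H2-Aa, Ciita was 0.0204 to 0.0283 in the 6 libraries. Part of the exon sequence of Ciita is shared with Dexi on the other strand.

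**Figure D2:**
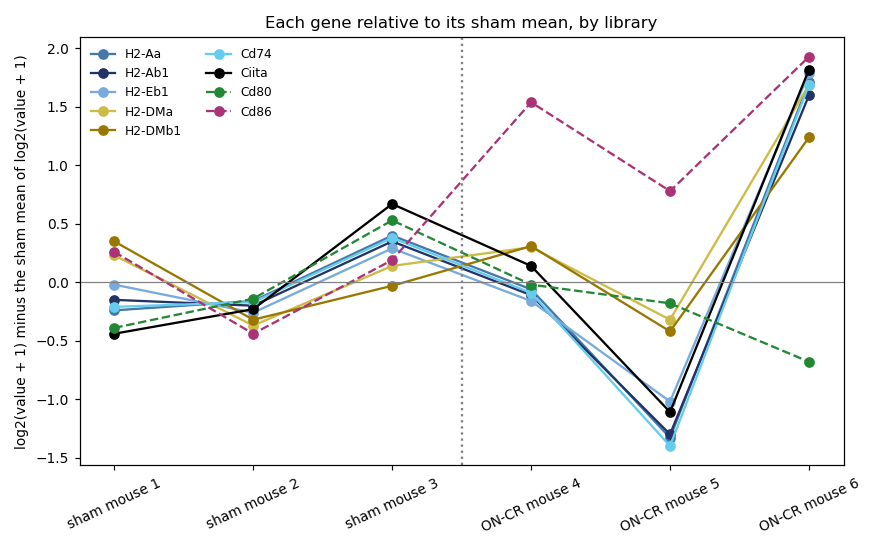
Log2(value + 1) of each gene minus its sham mean (vertical axis) in each of the 6 libraries (horizontal axis), with solid lines for the 7 class II genes, dashed lines for Cd80 and Cd86, and lines that only join the values of 1 gene, since mice have no order. At ON-CR mouse 6 the solid lines and Cd86 lie above 1, at ON-CR mouse 5 the solid lines lie below 0 while Cd86 lies at 0.78, and Cd80 is lowest at ON-CR mouse 6.

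Cd86 and Cd80 bind the same receptors on T cells and are given side by side. Cd86 (chr16:36603869-36666081, minus strand) had normalized values of 169, 104 and 161 in the sham mice and 412, 243 and 540 in the ON-CR mice. Each crushed mouse was above every sham mouse, and the values rested on 117 to 171 estimated reads per sham library and 232 to 520 per ON-CR library. The means were 144 ± 35.5 and 398 ± 149 (SD, n = 3), and Cd86 rose by a log2 fold change of 1.42 (SE 0.29, 95% interval 0.76 to 2.07, limma adjusted p = 0.0393). The exact permutation test gave p = 0.1, the smallest possible here. Cd80 (chr16:38455561-38496335, plus strand) had values of 24.4, 29.2 and 47.0 in the sham mice and 31.9, 28.3 and 19.7 in the ON-CR mice. The groups overlapped, the lowest value was that of ON-CR mouse 6, and a library held only 19 to 50 estimated reads of this gene. Its log2 fold change was -0.29 (SE 0.38, 95% interval -1.14 to 0.55, adjusted p = 0.770), so a rise of 1 log2 unit lies outside this interval and a fall of 1 log2 unit within it. The ratio of Cd86 to Cd80, also chosen after its values were seen, was 3.42 to 6.91 in the sham mice and 8.59 to 27.4 in the ON-CR mice.

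The call for Cd86 depended on which mice were included. It was kept under all 8 other settings of scaling, pseudocount, filter and fit (log2 fold change 1.41 to 1.58). With 1 mouse left out, the log2 fold change was 1.16 to 1.73, but Cd86 passed only without ON-CR mouse 5 (adjusted p = 0.00376). The adjusted p was 0.0884 without ON-CR mouse 4, 0.215 without ON-CR mouse 6 and 0.192 without sham mouse 2, and it lay between the lowest and the highest of these without sham mouse 1 or sham mouse 3.

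As a count, 1 of the 9 members passed the test, Cd86, where 2.10% of all genes passed in either direction and 0.971% were called higher. With an unadjusted limma p of at most 0.05 and a fold change of at least 2, thresholds like those in the methods of the study but on another test, 4.66% of all genes and again only Cd86 among the members passed. Groups did not overlap for 21.6% of all genes and for Cd86 alone among the members. A single member of 9 sets the group apart from other genes in none of these counts. The position of ON-CR mouse 6 was different. It held the highest value for 20.0% of all genes and for 8 of 9 members, all but Cd80, and it exceeded the next library by at least 1.5 times for 4.23% of all genes and for 7 members, H2-Aa, H2-Ab1, H2-Eb1, H2-DMa, H2-DMb1, Cd74 and Ciita. ON-CR mouse 5 held the lowest value for 17.3% of all genes and for 6 members, those 7 without H2-DMa. These counts follow a pattern that was already seen in the values, and members of a pathway are not independent, so they are given as a description.

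**Figure D3:**
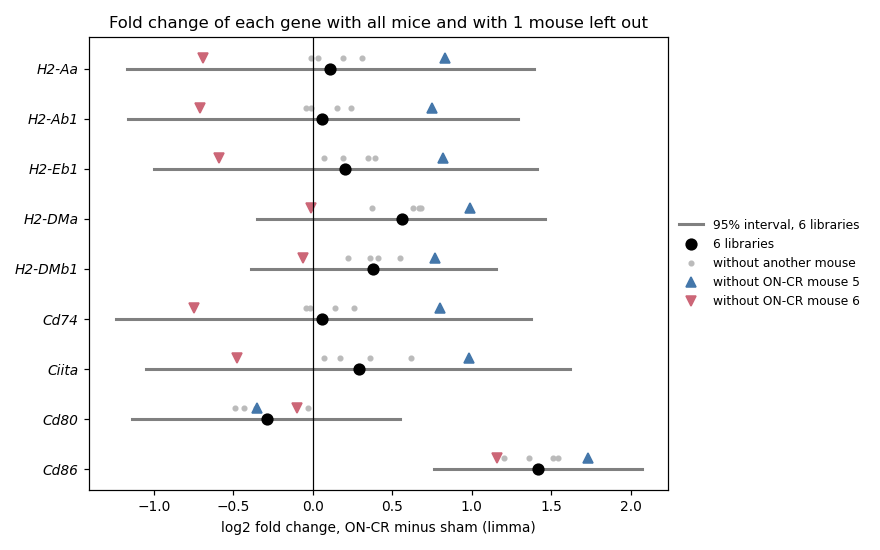
Log2 fold change of each gene, ON-CR minus sham (horizontal axis), with black points for all 6 libraries, grey bars for the 95% interval from limma, and smaller marks for the fit without each mouse. Without ON-CR mouse 6 (red triangles) the 7 class II genes lie between -0.75 and -0.01, without ON-CR mouse 5 (blue triangles) between 0.75 and 0.99, and Cd86 lies to the right of 0 in every fit.

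The direction of the class II genes turned with single mice. Without ON-CR mouse 6 the log2 fold change was -0.69 for H2-Aa, -0.71 for H2-Ab1, -0.59 for H2-Eb1, -0.75 for Cd74, -0.48 for Ciita, -0.06 for H2-DMb1 and -0.01 for H2-DMa, with none past the threshold. Without ON-CR mouse 5 the same genes were at 0.83, 0.75, 0.82, 0.80, 0.98, 0.77 and 0.99, again with none past the threshold. The 3 sham mice differed less. The highest over the lowest sham value was between 1.46 (H2-Eb1) and 2.17 (Ciita) for all 9 genes, while for the ON-CR mice it was 8.49 for Cd74, 8.21 for H2-Aa, 7.71 for Ciita, 7.49 for H2-Ab1, 7.02 for H2-Eb1, 4.02 for H2-DMa and 3.17 for H2-DMb1. For Cd86 and Cd80 the spread among ON-CR mice was 2.22 and 1.62.

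Per kilobase of exon, the sham means ran from Cd74 at 15404 through H2-Ab1 at 1799, H2-Eb1 at 1401, H2-Aa at 1254, H2-DMb1 at 288, H2-DMa at 202, Cd86 at 39.4 and Ciita at 12.2 to Cd80 at 9.05 normalized units. The sham ranges overlapped between the neighbours H2-Ab1 and H2-Eb1, H2-Eb1 and H2-Aa, H2-DMb1 and H2-DMa, and Ciita and Cd80. Within each of the 6 libraries, however, H2-Ab1 lay above H2-Eb1, H2-Eb1 above H2-Aa, and H2-DMb1 above H2-DMa. The invariant chain stood far above the chains it pairs with, the editors below them, and the regulator and the costimulatory ligands lowest. The whole order held in every library of both groups but 1, that of ON-CR mouse 5, in which Cd80 lay above Ciita. Together the 9 genes took 0.163%, 0.163% and 0.258% of the sham libraries and 0.195%, 0.0870% and 0.658% of the libraries of ON-CR mice 4, 5 and 6.

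Likeness to Cd74 was measured as Pearson's r of log2(value + 1) over the 6 libraries, which share the weight of ON-CR mice 5 and 6, so r is also given without mouse 6. It was 0.999 for H2-Aa and H2-Ab1, 0.983 for H2-Eb1 and 0.978 for Ciita, and 0.999, 0.998, 0.977 and 0.936 in the same order without ON-CR mouse 6. H2-DMa and H2-DMb1 were at 0.876 and 0.853, and at 0.575 and 0.529 without that mouse. Cd86 was at 0.440 and -0.231, and Cd80 at -0.275 and 0.556. Thus the editors and the costimulatory ligands followed Cd74 less closely than the classical chains and Ciita did. Outside the gene lists used here, the 5 genes with a mean value of at least 50 most like Cd74 were Tap2, the peptide transporter subunit of the class I pathway, Ccl19, a chemokine that binds Ccr7, Ehd2, H2-Q1, a class I gene, and Itpripl1, with r of 0.989 to 0.991. Their range was narrower than that of Cd74. Tap2 was at 1529, 1486 and 1814 in the sham mice and 1687, 1145 and 2519 in ON-CR mice 4, 5 and 6.

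For the rest of the pathway 50 symbols were listed, with older symbols of Marchf1 and Marchf8 beside the current ones. Pdcd1lg2 and Tnfsf4 were not among the genes measured, and 46 genes were read. Of these, 4 were called, all higher after ON-CR, and 42 were not, where 2.10% of all genes were called. The median log2 fold change was 0.49, beside 0.03 over all genes. Ctsd, an aspartic protease of the lysosome, was at 21886, 18759 and 16912 in the sham mice and 44914, 37730 and 49872 in the ON-CR mice. The groups lay apart, and Ctsd rose by 1.20 on the log2 scale (SE 0.15, adjusted p = 0.00384). The cysteine protease Ctsb rose by 0.69 (SE 0.14, adjusted p = 0.0380), from 15794 to 20822 in sham to 26017 to 31700 after ON-CR. Irf8, a transcription factor of the myeloid lineage, was at 404, 351 and 396 in the sham mice and 1384, 744 and 1332 in the ON-CR mice, and it rose by 1.53 (SE 0.22, adjusted p = 0.00733). Cd83, which limits the removal of class II and Cd86 from the cell surface, rose by 1.16 (SE 0.19, adjusted p = 0.0150), from 258 to 355 in sham to 512 to 783 after ON-CR. Like Cd86, these 4 genes were higher in each crushed mouse than in any sham mouse. Groups also did not overlap for 21.6% of all genes and for 14 of the 46, so this adds no support to the calls. Their number also depended on the mice, with 0 of the 46 called without ON-CR mouse 6, 1 without sham mouse 2 (Ctsd), 2 without sham mouse 3 (Ctsd and Irf8), 3 without ON-CR mouse 4 (Ctsd, Irf8 and Cd83) and 7 without ON-CR mouse 5, which adds Ctsl, Cd274 and Cd3e.

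By role, the proteases and reductase that prepare peptides and cut the invariant chain gave 2 of 7 called, Ctsb and Ctsd, with a median of 0.51. Ctss, the protease that makes the last cut of the invariant chain in most presenting cells, was not among them, at 6537, 4839 and 4262 in the sham mice and 6646, 4805 and 12227 in the ON-CR mice. Its highest value was again in ON-CR mouse 6, and the groups overlapped (log2 fold change 0.51, SE 0.29, adjusted p = 0.437). None of the 5 other class II chains and editors, H2-Eb2, H2-DMb2, H2-Oa, H2-Ob and H2-Ea, was called (median 0.52). All 5 had their highest value in ON-CR mouse 6, where 20.0% of all genes had theirs. H2-Eb2 rested on only 0 to 9 estimated reads per library. H2-Ea was at 0 in sham mouse 1 and ON-CR mouse 5. It was at 51.4 and 140 in sham mice 2 and 3 and at 38.9 and 258 in ON-CR mice 4 and 6. Sham mouse 1 and ON-CR mouse 5 also had the lowest ratios of H2-DMb2 to H2-DMb1 (0.0887 and 0.158). Their ratios of H2-Eb1 to H2-Aa were the highest (0.671 and 0.715). The source of this split, which crosses the groups, was not tested. H2-Oa, a chain of the H2-O pair that restrains H2-DM, was at 47.8, 33.6 and 60.1 in the sham mice and 74.8, 54.5 and 312 in the ON-CR mice.

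The factors that bind the X and Y boxes form a list of 7 (Rfx5, Rfxap, Rfxank, Nfya, Nfyb, Nfyc and Creb1). None of them was called, where 2.10% of all genes were, and the median was 0.06. None had its highest value in ON-CR mouse 6, where 20.0% of all genes had theirs. With 7 genes, such counts do not set the list apart from other genes. Groups did not overlap for 3 of the 7, with Rfxap higher and Rfxank and Nfyc lower after ON-CR, beside 21.6% of all genes. Rfx5 was at 92.9, 117 and 88.0 in the sham mice and 96.9, 106 and 78.6 in the ON-CR mice, a narrow range beside that of Ciita. Of 11 genes that act on Ciita transcription, Irf8 was called, and the median was 0.02. Ifng, the classical inducer of Ciita, had values of 0 to 4.15, which are 0 to 4 estimated reads, and its direction is not readable at this depth.

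Among 3 genes of surface turnover, Cd83 was called and the median of the list was -0.38. The ubiquitin ligases Marchf1 and Marchf8 were not called, at -0.38 and -0.41 on the log2 scale (adjusted p = 0.178 and 0.204). Their groups did not overlap, as was the case for 21.6% of all genes. None of 4 other costimulatory ligands was called (median 0.59). The checkpoint ligand Cd274 was at 73.1, 75.2 and 66.1 in the sham mice and 188, 82.7 and 239 in the ON-CR mice, higher in each crushed mouse but short of the threshold (log2 fold change 1.11, SE 0.35, adjusted p = 0.152). On the side of the T cell, 9 partners of class II, Cd80 and Cd86 gave 0 calls and a median of 1.22. All 9 had their highest value in ON-CR mouse 6, where 20.0% of all genes had theirs. Cd4, Cd3e, Cd3d and Cd3g are also among the T cell markers below, so the 2 lists are not separate readings. Of these 9, Ctla4 rested on 0 to 12 and Cd40lg on 0 to 4 estimated reads per library, so their order of mice is weakly read. Their summed value was 199 to 401 in the sham mice and 434, 301 and 1344 in ON-CR mice 4, 5 and 6.

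**Figure D4:**
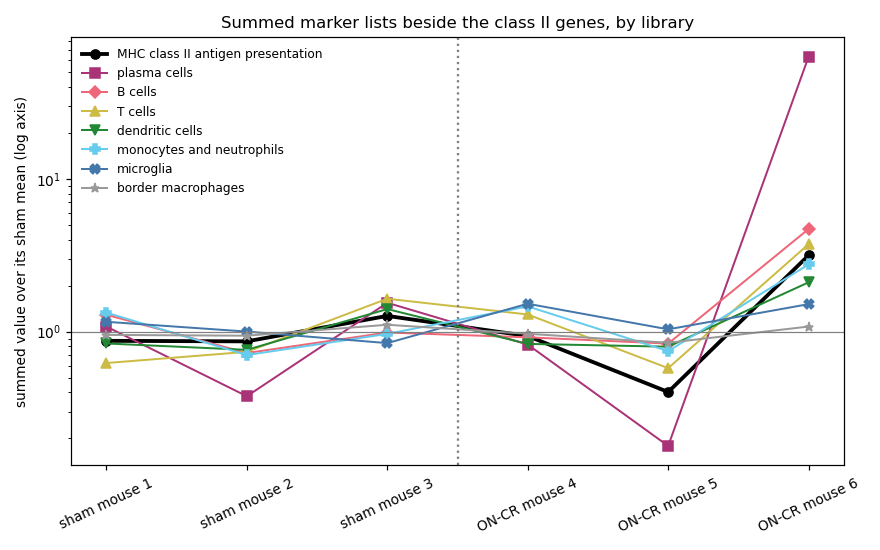
Summed normalized value of the 9 class II presentation genes (black) and of 7 marker lists in each library, divided by the sham mean of each (vertical axis, log scale), with lines that only join the values of 1 list. At ON-CR mouse 6 the class II genes are at 3.15, plasma cell markers at 62.8, B cell markers at 4.69 and T cell markers at 3.73, while border macrophage markers are at 1.08.

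Markers of cells that present antigen, and of lymphocytes, were read as sums beside the class II genes. The summed 7 plasma cell markers were 719 to 2937 in the sham mice and 1566, 340 and 119575 in ON-CR mice 4, 5 and 6, and 7 B cell markers were 105 to 187 and then 133, 121 and 680. T cell markers (8 genes) were 256 to 674 and then 532, 237 and 1534, and dendritic cell markers (8 genes) were 289 to 534 and then 316, 303 and 799. Monocyte and neutrophil markers (6 genes) were 296 to 561 and then 616, 314 and 1158, a sum to which Ly6c2 added 385 in ON-CR mouse 6 against 25.5 to 70.5 in the others. In the same list, Ccr2 was highest in ON-CR mouse 4 (356, against 345 in ON-CR mouse 6). Chil3 and S100a9 were highest in sham mouse 1 (20.2 and 49.9). The highest value lay in ON-CR mouse 6 for 6 of 7 plasma cell, 6 of 7 B cell, 8 of 8 T cell, 6 of 8 dendritic cell and 3 of 6 monocyte and neutrophil markers. Over all genes this share was 20.0%. All 5 lists had their highest sum in ON-CR mouse 6, the mouse with the highest class II values, and none of their genes was called. The B cell gene Ms4a1 was at 0 to 22.3 in the other 5 libraries and at 148 in ON-CR mouse 6. Another B cell gene, Pax5, was highest in sham mouse 1, at 6.37 against 3.12 in ON-CR mouse 6. The 7 border macrophage markers summed to 1903 to 2244 in the sham mice and 1959, 1711 and 2184 in the ON-CR mice, with 0 called. Their lowest sum was also in ON-CR mouse 5, but over the 6 libraries they spanned a far narrower range than the class II genes. The part of any of these cell types in the class II values was not tested.

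Most markers of activated microglia were higher in the crushed mice, as Cd86 was. Of 10 such markers, 8 rose (Trem2, Cst7, Lpl, Clec7a, Spp1, Gpnmb, Cd9 and Itgax). Axl (log2 fold change 0.28, adjusted p = 0.240) and Apoe, the most abundant of the 10 (-0.23, adjusted p = 0.587), were not called. With Apoe included, their summed values overlapped, at 207154 to 259226 after sham surgery and 229921, 225985 and 191425 in ON-CR mice 4, 5 and 6. Of 10 general microglial markers 1 rose, Aif1, which encodes Iba1, by 1.22 on the log2 scale (SE 0.23, adjusted p = 0.0260). A higher mean after ON-CR was found for 7 of these 10, while Tmem119 (-0.27), P2ry12 (-0.35) and Sall1 (-0.07) were lower and not called. With 1 mouse left out, Cst7, Lpl, Clec7a, Gpnmb and Itgax kept their call in all 6 fits, Trem2 in 5 (not without ON-CR mouse 6), Spp1 and Cd9 in 2 each and Aif1 in 1. Cst7 was at 12.7, 12.4 and 25.4 in the sham mice and 622, 385 and 618 in the ON-CR mice. The summed 10 general markers were 14631 to 20171 in the sham mice and 26472, 18008 and 26318 in the ON-CR mice, so their sums overlapped. Relative to Csf1r, the growth factor receptor of microglia and macrophages, Cd86 was 0.0261 to 0.0444 in the sham mice and 0.0616 to 0.0897 in the ON-CR mice. H2-Aa relative to Csf1r was 0.809, 1.05 and 1.71 in the sham mice and 0.766, 0.471 and 2.54 in the ON-CR mice, without separation. These ratios were chosen after their values were seen and are not adjusted for length, and the part of microglial number or state in the rise of Cd86 was not tested.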

How the data were processed

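RNA from 6 optic nerve libraries, 3 sham and 3 ON-CR by their sample labels, had been sequenced on an Illumina HiSeq from 10 ng of RNA each. The authors aligned and counted the reads with DRAGEN, used Ensembl models of mm10 and normalized by median in Partek Flow 10.0, so the deposited values are a normalized signal per gene and not raw counts. Between 69.9% and 72.0% of values up to 100 were whole multiples of 1 read, within 0.02 reads, which gave the estimated reads. No count model was run.

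The reported test was that of limma 3.58.1 (R 4.3.3) on the log2 of each value plus 1 (mean-variance trend, all 6 mice, Benjamini-Hochberg over 25755 genes, called at an adjusted p of 0.05). Every adjusted p is from limma, in this fit or, where a mouse is said to be left out, in the same fit without it, and fold changes on this scale understate those of low genes. Members, gene lists and tests were chosen with earlier results of these data known. Named were all members, called genes and the most abundant genes of each list, the 5 genes most like Cd74 and sex-linked genes, and others, such as Cst7, Ms4a1, Rfx5 and H2-Oa, were chosen after their values were seen. Some results for genes of these lists are left out. Gene positions are from GENCODE M21 on GRCm38, with promoters from RefSeq. Alternatives were 2 pseudocounts, 3 scalings, a filter on mean values of at least 10, a robust fit, sample weights and leaving out each mouse. Mice with traumatic brain injury were not analysed here.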

Additional observations from a re-analysis of the deposited data

How the results depend on the processing

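Under the 8 alternatives of pseudocount, scaling, filter and fit, each member kept its direction and its side of the threshold, and 521 to 791 genes were called, beside 540. Scaling to equal library totals moved the median of all genes from 0.03 to 0.15 and the calls to 421 higher and 195 lower. Leaving out each mouse in turn gave 67 to 854 genes, 0 to 1 members and 0 to 7 pathway genes called. The fewest genes (67) were left without ON-CR mouse 6 and the most (854) without ON-CR mouse 5, with 192, 123 and 258 without sham mice 1, 2 and 3. Without ON-CR mouse 5 the log2 fold change was 0.83 for H2-Aa, 0.75 for H2-Ab1, 0.82 for H2-Eb1, 0.99 for H2-DMa, 0.77 for H2-DMb1, 0.80 for Cd74 and 0.98 for Ciita. The sign turned for 12 values, in 3 of the fits that leave out a mouse. Without ON-CR mouse 6 it was -0.69 for H2-Aa, -0.71 for H2-Ab1, -0.59 for H2-Eb1, -0.01 for H2-DMa, -0.06 for H2-DMb1, -0.75 for Cd74 and -0.48 for Ciita. Without sham mouse 1 it was -0.01 for H2-Aa and H2-Ab1 and -0.04 for Cd74, and without sham mouse 2 it was -0.04 for H2-Ab1 and -0.02 for Cd74. These fits have fewer mice, and no other cause was tested. No paired analysis was possible because mice carry different numbers in the 2 groups. Cd80 rested on 19 to 50 estimated reads per library, which limits its precision.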
